A study of Cucumis melo with 8 samples.

Results

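miR319 is 1 of the plant microRNA (miRNA) families detected in the flesh of developing Hami melon fruit, and it is described here over fruit development in both sampling batches. Its members were taken by name, as the rows of the deposited table called cme-miR319a, cme-miR319b, cme-miR319c and cme-miR319d. These are 4 of the 116 names in the table. The names share their mature sequence in pairs and each name of a pair carries the same value, so the family was counted as 2 of 71 distinct sequences, called miR319a/b and miR319c/d. Reads of the 2 names of a pair cannot be told apart.

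The study profiled small RNAs of the fruit mesocarp (the flesh) of Cucumis melo ‘Flavor No. 4’ taken 10, 20, 30 or 40 days after the flower opened (days after flowering, DAF), to follow miRNAs through fruit development and ripening. The fruits were grown in a greenhouse from hand-pollinated flowers. Each stage had 2 libraries, 1 per batch. In the first batch 3 fruits were pooled per stage and the libraries were read single-end on a GAIIx, while in the second batch, grown in the following year, 1 fruit was used per stage and the libraries were read paired-end on a NextSeq. Season, sequencer and number of fruits thus changed together and cannot be told apart. The stages of 10 and 20DAF are called early here and those of 30 and 40DAF ripening. No genotype or treatment differed between groups. The table holds miRNAs only, so the tissue could not be checked against marker genes.

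Levels are given in TPM, which in this table is the read count of a miRNA scaled to a read total of its library, with no division by length. The low values of each library stepped by whole multiples of what 1 read is worth, and this step gave totals of 233129 to 410978 reads for first-batch libraries and 105075 to 985390 for second-batch ones. These totals lie far below the clean reads that the paper lists for each library. They are therefore the total behind the TPM and not the number of reads sequenced. A level of 3 reads, taken as the detection floor, was worth between 3.04 and 28.6 TPM. Both miR319 sequences lay far above it everywhere, with 264 to 24672 reads as counted by this step. In the read counts listed with the study, second-batch miR319a/b stands higher than these TPM imply, by a nearly constant factor at all stages, while first-batch miR319a/b and miR319c/d of both batches match closely. The deposited TPM are used here, and which of the lists is right could not be settled. Such a factor leaves the changes of miR319a/b between stages of a batch nearly as they are. It would raise its second-batch levels and its ratio to miR319c/d there. Each comparison of libraries from different batches would so shift, including which stages overlap. The spread between the batches would change too, and with it the p-values of miR319a/b that rest on that spread. The 71 sequences together made up 57.1 to 88.3% of the first-batch totals but 41.2 to 50.6% of the second-batch ones, so a TPM does not stand for the same share of the listed miRNAs in both.

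Plant miRNAs are cut from hairpin precursors and guide the cleavage or repression of messenger RNAs that match them over nearly their whole length. In Arabidopsis, miR319 acts on a group of TCP transcription factor genes that restrain cell proliferation in growing leaves and promote maturation and senescence. The related miR159 acts mainly on MYB transcription factor genes of the GAMYB type, although the mature sequences are much alike. In Arabidopsis the TCP factors also link miR319 to other miRNAs of organ growth and ageing, among them miR164, which acts on NAC genes such as the CUP-SHAPED COTYLEDON genes, and miR396, which acts on growth-regulating factor genes.

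The mature sequences of the family and of miR159 are shown first because the family's levels have to be read together with these near neighbours. Capitals mark bases 2 to 8, the seed.
miR319a/b: uUGGACUGaagggagcuccc
miR319c/d: uUGGACUGaagggagcuccu
miR159b: aUUGGAUUgaagggagcuccu
miR159a: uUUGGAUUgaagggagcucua

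Both miR319 sequences are 20 nt long and share the seed UGGACUG, which no other sequence of the table carries. With positions counted from the 5′ end of miR319, they differ only by C20U, at their last base. Both miR159 sequences are 21 nt long, share the seed UUGGAUU and read on in register with miR319 from their second base. In that register miR159b differs from miR319c/d only by C6U, and from miR319a/b by C6U and C20U. miR159a differs from each miR319 sequence at 3 bases, with the substitutions C6U, C19U and C20A from miR319a/b and C6U, C19U and U20A from miR319c/d. The next nearest sequence of any other family stood at 8 mismatches from miR319a/b and 9 from miR319c/d. Since reads were matched with up to 1 mismatch, a read can match both miR319 sequences, or both miR319c/d and miR159b. The amount of such sharing was not tested.

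The hairpins behind the 4 names differ far more than their products, and they are shown with the mature miRNA in capitals. They are the melon hairpins listed with the study's miRNAs. All 4 had a RefSeq gene of the same name (MIR319A to MIR319D) and of equal length, but the sequences were not compared with RefSeq.
MIR319a: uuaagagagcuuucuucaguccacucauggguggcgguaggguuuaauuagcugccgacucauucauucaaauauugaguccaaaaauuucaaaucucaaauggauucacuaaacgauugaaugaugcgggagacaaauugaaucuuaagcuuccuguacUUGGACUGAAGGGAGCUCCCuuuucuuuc
MIR319b: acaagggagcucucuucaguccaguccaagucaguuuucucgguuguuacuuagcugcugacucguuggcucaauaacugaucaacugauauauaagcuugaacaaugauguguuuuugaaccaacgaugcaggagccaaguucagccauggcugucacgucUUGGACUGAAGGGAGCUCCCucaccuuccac
MIR319c: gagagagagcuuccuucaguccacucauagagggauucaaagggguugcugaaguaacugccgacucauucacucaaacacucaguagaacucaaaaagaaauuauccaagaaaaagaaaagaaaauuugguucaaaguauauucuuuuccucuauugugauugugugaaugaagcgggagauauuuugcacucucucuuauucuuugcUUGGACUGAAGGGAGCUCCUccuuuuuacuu
MIR319d: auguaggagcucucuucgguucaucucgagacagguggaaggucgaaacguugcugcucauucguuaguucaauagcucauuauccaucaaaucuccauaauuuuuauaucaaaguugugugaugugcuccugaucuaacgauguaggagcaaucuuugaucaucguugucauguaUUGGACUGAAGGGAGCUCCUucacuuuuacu

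The hairpins are 189, 193, 240 and 207 nt long for MIR319a, MIR319b, MIR319c and MIR319d. Aligned in pairs, they were identical at 54.5 to 66.2% of positions, with the highest identity between MIR319b and MIR319d and the lowest between MIR319b and MIR319c. The hairpins that give the same mature sequence were not the most alike, with 64.0% for MIR319a with MIR319b and 58.9% for MIR319c with MIR319d. In all 4 the mature sequence sits near the 3′ end, starting at base 161, 163, 210 and 177. In folds predicted with RNAfold, 18 to 20 of its 20 bases were paired, with folding energies between -77.5 and -85.1 kcal/mol. In the RefSeq annotation MIR319B and MIR319C lie on one chromosome with 986 genes between them, and MIR319D and MIR319A on another with 432 genes between them, so the genes of a pair are not neighbours.

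Both miR319 sequences were abundant, with lower mean levels at the ripening stages than in young fruit in each batch. Over all libraries neither change passed on adjusted p, and the batches lay close together at 30DAF and apart at 40DAF. In the first batch miR319a/b measured 18006, 20147, 7439 and 2020 TPM at 10, 20, 30 and 40DAF. The second-batch levels at these stages were 12074, 25038, 6652 and 13816 TPM. The highest level stood at 20DAF in both batches, and the lowest stood at 40DAF in the first batch but at 30DAF in the second. The early and ripening libraries of miR319a/b overlapped, because the 40DAF library of the second batch lay above its 10DAF library.

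miR319c/d measured 10407, 8422, 2998 and 1132 TPM from 10 to 40DAF in the first batch. In the second batch it measured 6029, 6543, 3740 and 4388 TPM. All 4 ripening libraries of miR319c/d lay below all 4 early libraries, a separation in the lower direction that 3 of the 71 sequences showed (4.23%). The other sequences that showed it were miR159b and miR399f, the latter named after its values were seen. miR399f averaged under 10 TPM. Of the 71 sequences, 43 had reads in all libraries. Within each batch taken alone, both ripening libraries lay below both early ones for 5 of the 71 sequences (7.04%), miR319c/d among them and miR319a/b not.

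**Figure D1:**
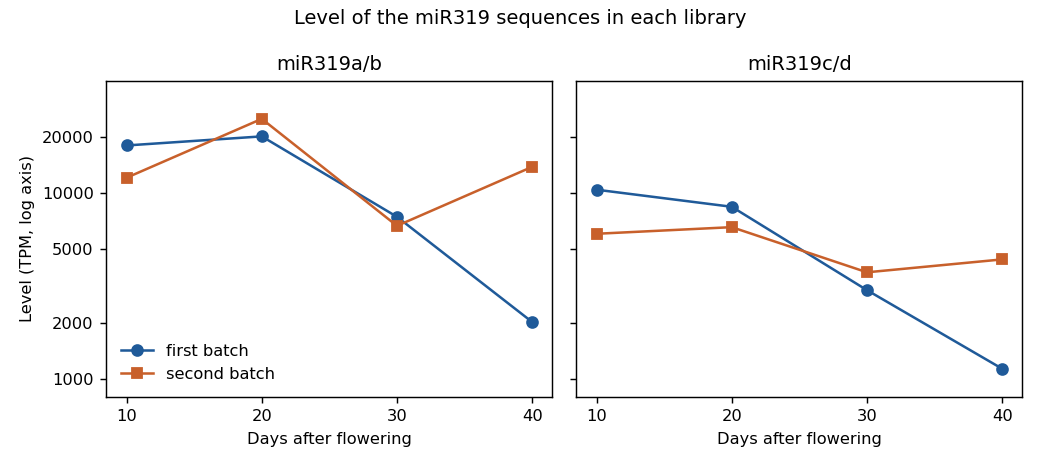
Level of miR319a/b (left) and miR319c/d (right) in each library, in TPM on a log axis, against days after flowering. Each point is 1 library, circles joined for the first batch and squares for the second. The batches lie close together at 30DAF and far apart at 40DAF, where miR319a/b stood at 2020 and 13816 TPM and miR319c/d at 1132 and 4388 TPM.

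Ordered by their means, the levels of miR319a/b ran from 20DAF (22593 ± 3458 TPM) down through 10DAF (15040 ± 4194) and 40DAF (7918 ± 8341) to 30DAF (7046 ± 556; SD, n = 2). The libraries of 20 and 10DAF did not overlap, those of the later neighbours in this order did, and no neighbours passed the limma thresholds for pairs of stages. The order for miR319c/d followed the stages, with 10DAF (8218 ± 3096 TPM) before 20DAF (7482 ± 1328), 30DAF (3369 ± 525) and 40DAF (2760 ± 2302; SD, n = 2). Here the gap between 20 and 30DAF was the only one between neighbours at which the libraries did not overlap. By rank among the 71 sequences, miR319a/b was between the 3rd and the 5th most abundant in every library and miR319c/d between the 4th and the 7th.

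Averaged over the early and the ripening stages, the mean TPM of miR319a/b was 4.03-fold lower at ripening among first-batch libraries and 1.81-fold lower among second-batch ones. For miR319c/d these ratios were 4.56 and 1.55. The change towards ripening was tested with limma on log2(TPM + 5) over all 71 sequences. It was -1.58 on the log2 scale for miR319a/b (SE 0.61, 95% interval -3.05 to -0.11, unadjusted p = 0.0392, Benjamini-Hochberg adjusted p = 0.174 by limma). It was -1.49 for miR319c/d (SE 0.49, 95% interval -2.67 to -0.30, unadjusted p = 0.0211, adjusted p = 0.125 by limma). Neither sequence passed on adjusted p, where 4 of 71 sequences passed (5.63%), 1 of them lower (1.41%). At an unadjusted p under 0.05 with a fold over 1.5, the form of threshold the study used, both were lower at ripening, as were 6 of all 71 sequences (8.45%). The call of miR319a/b was tested on the deposited values only, and its p depends on the spread between batches. The median change over the 71 sequences was 0.08.

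The size of this change rested on the 40DAF libraries. Without the 40DAF library of the second batch, the change was -2.27 for miR319a/b and -1.97 for miR319c/d, and both passed on adjusted p (0.0347 and 0.0429 by limma). Without the 40DAF library of the first batch, it was -0.88 and -1.0 and neither passed. When each library was scaled on the families other than miR159, miR396 and miR319, the changes were -2.79 and -2.70 (adjusted p = 0.0164 and 0.00401 by limma), and the median over all sequences moved by -0.64 with them.

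**Figure D2:**
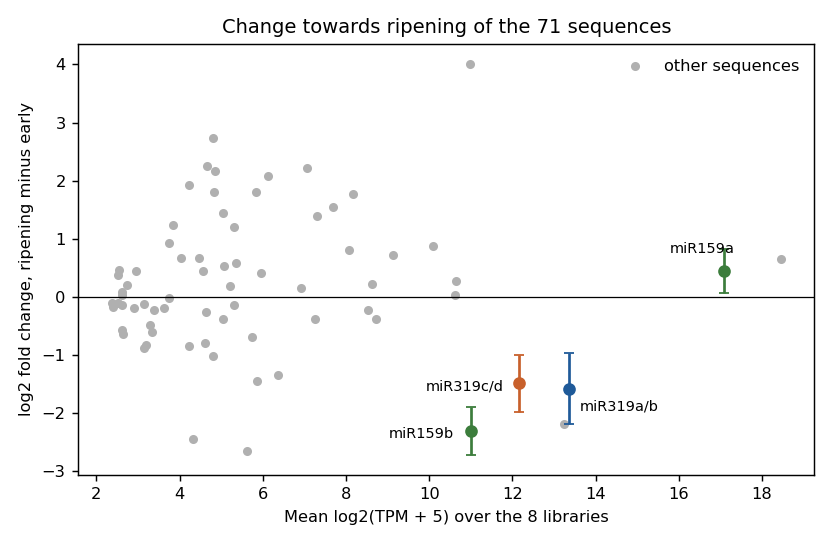
Change of each of the 71 sequences from early to ripening stages (log2 fold change on the log2(TPM + 5) scale) against its mean log2(TPM + 5) over the 8 libraries. Coloured points are both miR319 and both miR159 sequences with bars of 1 SE, and grey points are the other sequences. The miR319 sequences stood at -1.58 and -1.49 and miR159b at -2.30, while miR159a stood at 0.45.

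Between single stages, miR319c/d was lower at 40DAF than at 10DAF by the unadjusted threshold, with a change of -1.83 on the log2 scale (SE 0.70, unadjusted p = 0.0365 by limma), a call in the lower direction that 6 of 71 sequences received (8.45%). From 20 to 40DAF the changes were -1.73 for miR319c/d (SE 0.70, unadjusted p = 0.0442 by limma) and -2.09 for miR319a/b (SE 0.87, unadjusted p = 0.0496 by limma), where 3 of 71 sequences were called lower (4.23%). With the batch as a replicate block these calls were lost, at unadjusted p = 0.0575 and unadjusted p = 0.0529 by limma. The miR319a/b call was tested on the deposited values only. Leaving out any 1 library other than the second-batch 40DAF one lost all 3 calls, and without the first-batch 40DAF library the changes were -0.85, -0.76 and -0.70. Without the second-batch 40DAF library miR319a/b changed by -3.47 from 20 to 40DAF and passed on adjusted p (0.0368 by limma). The fits that used only the libraries of the stages compared lost all 3 calls, with unadjusted p = 0.114 for miR319c/d between 10 and 40DAF. From 10 to 30DAF the changes were -1.07 for miR319a/b (SE 0.87) and -1.24 for miR319c/d (SE 0.70), and from 20 to 30DAF -1.67 and -1.15 with the same errors, where 7.04% and 1.41% of the 71 sequences were called lower. From 10 to 20DAF miR319a/b changed by 0.61 (SE 0.87) and miR319c/d by -0.09 (SE 0.70), and from 30 to 40DAF by -0.41 (SE 0.87) and -0.59 (SE 0.70), where 7.04% and 9.86% of the sequences were called in either direction. In the fit over all libraries none of these 8 changes passed the unadjusted threshold, and none of the 12 changes between pairs of stages passed on adjusted p. Other settings did give calls. From 20 to 30DAF both sequences passed the unadjusted threshold when only the libraries compared were used (unadjusted p = 0.00340 for miR319a/b and unadjusted p = 0.0167 for miR319c/d by limma) and with median-ratio scaling (unadjusted p = 0.0355 and unadjusted p = 0.0340 by limma). From 10 to 30DAF miR319c/d passed the unadjusted threshold with median-ratio scaling (unadjusted p = 0.0284 by limma) and with libraries scaled to the sum left without miR159 and miR396 (unadjusted p = 0.0329 by limma). With miR319 taken out of that sum too, an alternative chosen after the data were seen, miR319c/d passed on adjusted p from 10 to 30DAF (adjusted p = 0.0345 by limma), 10 to 40DAF (adjusted p = 0.0105 by limma) and 20 to 40DAF (adjusted p = 0.0187 by limma), and miR319a/b from 10 to 40DAF (adjusted p = 0.0453 by limma), where the medians over all sequences moved by -0.69 to -0.75.

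At 10, 20 and 30DAF the batches differed by no more than 1.49-fold for miR319a/b and 1.73-fold for miR319c/d. These batch comparisons rest on the deposited TPM, with the doubt on second-batch miR319a/b described with the read totals. At 40DAF the second batch exceeded the first 6.84-fold for miR319a/b and 3.87-fold for miR319c/d. Over all stages, with the stage as a covariate, the second batch minus the first was 0.59 for miR319a/b (SE 0.61, adjusted p = 0.650 by limma) and 0.28 for miR319c/d (SE 0.52, adjusted p = 0.827 by limma). Of the 71 sequences, 2 passed in this contrast (2.82%). Without the first-batch or without the second-batch 40DAF library the sign turned, to -0.14 and -0.28. With median-ratio scaling the differences were 1.12 and 0.81 (unadjusted p = 0.043 and unadjusted p = 0.042, adjusted p = 0.168 for both by limma). The median over all sequences then moved by 0.33.

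Fitted within batches, with the stages of each kind as replicates, the change of miR319c/d towards ripening was -2.34 for the first batch (SE 0.49, adjusted p = 0.0363 by limma) and -0.63 for the second (SE 0.49, adjusted p = 0.397 by limma). In the first batch 4 of 71 sequences passed, all lower (5.63%). For miR319a/b the changes were -2.29 (SE 0.67, adjusted p = 0.0678 by limma) and -0.86 (SE 0.67, adjusted p = 0.397 by limma). The difference between the batches in this change was 1.71 for miR319c/d (SE 0.69, unadjusted p = 0.0378, adjusted p = 0.240 by limma) and 1.44 for miR319a/b (SE 0.95, adjusted p = 0.455 by limma), and 2 of 71 sequences passed on adjusted p (2.82%). The median of this difference over all 71 sequences was 1.11, and 15 of the 71 lay below 0. With median-ratio scaling of the libraries it was 0.45 for miR319c/d and 0.17 for miR319a/b, with a median of 0.17.

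The makeup of the libraries moved with the stages. miR396b, the most abundant sequence, measured 691112 and 657878 TPM at 30 and 40DAF of the first batch, against 215164 to 353950 TPM in the other 6 libraries. In those 2 libraries the 71 sequences made up 88.3 and 87.2% of the total, against 58.7 and 57.1% at 10 and 20DAF of that batch. Whether miR396b affected the TPM of miR319 was not tested. The family was also measured without both abundant families. Measured without miR159 and miR396, miR319 made up 73.6, 71.2, 37.6 and 15.1% of the remaining first-batch TPM from 10 to 40DAF. The second-batch shares were 74.4, 82.0, 35.9 and 41.0%. On this scale, too, every early library lay above every ripening library. The log2 share differed by -1.31 between ripening and early stages (exact permutation test, two-sided, p = 0.0286), the smallest p that 4 libraries against 4 can give. This was an alternative setting, outside the 6 exact tests adjusted together, and it was not run with the replicate block. The family was itself most of this total in the early libraries, so the share moves less than a ratio of miR319 to the other sequences.

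As a share of the TPM of all 71 sequences, the family held 4.84, 5.0, 1.18 and 0.362% from 10 to 40DAF in the first batch. In the second batch it held 4.08, 7.66, 2.05 and 3.64%. The early libraries lay between 4.08 and 7.66% and the ripening libraries between 0.362 and 3.64%, with no overlap in the deposited TPM. On the read counts listed with the study the groups would overlap, since the second-batch 40DAF share would pass the first-batch 10DAF share. This separation and its test therefore hold for the deposited values only. The log2 share changed by -1.97 towards ripening (exact permutation test, two-sided, p = 0.0286, adjusted p = 0.0857 over the 6 exact tests made), a 3.92-fold lower share. Permuted within batches as a replicate block, the p was 0.0556, the smallest that test allows. Between the batches the log2 share differed by 1.12 (exact permutation test, two-sided, p = 0.314). Among the 11 sequences of 20 nt in the table, the family held 78.4 to 99% of the TPM, and it was lowest at 40DAF of the first batch.

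The ratio of the 2 miR319 sequences does not depend on how a library is scaled. In the first batch miR319a/b exceeded miR319c/d by ratios of 1.73, 2.39, 2.48 and 1.78 from 10 to 40DAF. In the second batch the ratios from the deposited TPM were 2.0, 3.83, 1.78 and 3.15, and the read counts listed with the study would give higher ones. miR319a/b was the more abundant in 8 of 8 libraries, at 63.4 to 79.3% of the family's reads. The ratio rose from 10 to 20DAF in both batches, and from 30 to 40DAF it fell in the first batch and rose in the second. The 30DAF library had the highest ratio of the first batch and the lowest of the second. Its difference from 20DAF in the first batch and from 10DAF in the second lay within counting error.

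In the deposited values counting error was smaller than the gaps between the batches at each stage, but not than every gap between stages. The intervals of 20 and 30DAF overlapped in the first batch, as did those of 10 and 30DAF in the second. The 95% Clopper-Pearson intervals of the ratio, which cover counting error only, since reads copied by PCR are not independent molecules, at 20DAF were 2.29 to 2.50 for the first batch and 3.72 to 3.93 for the second. At 10DAF they were 1.66 to 1.81 and 1.92 to 2.08, at 40DAF 1.53 to 2.08 and 2.87 to 3.46, and at 30DAF 2.32 to 2.65 and 1.57 to 2.02. In the deposited values the intervals of the batches were thus apart at every stage, with the second batch higher at 10, 20 and 40DAF and the first at 30DAF. On the listed read counts the second batch would be higher at 30DAF too, so the order of the batches there is unsettled. Against this spread between libraries, the log2 ratio changed by -0.09 from early to ripening stages (exact permutation test, two-sided, p = 0.829). It was 1.25 ± 0.50 at the early stages and 1.16 ± 0.40 at ripening (SD, n = 4), so no difference was detectable. The sign of that small change turned when 1 library was left out, the 40DAF library of the first batch or the 20 or 30DAF library of the second. Between the batches the log2 ratio differed by 0.31 (exact permutation test, two-sided, p = 0.343), a value that holds for the deposited TPM only.

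**Figure D3:**
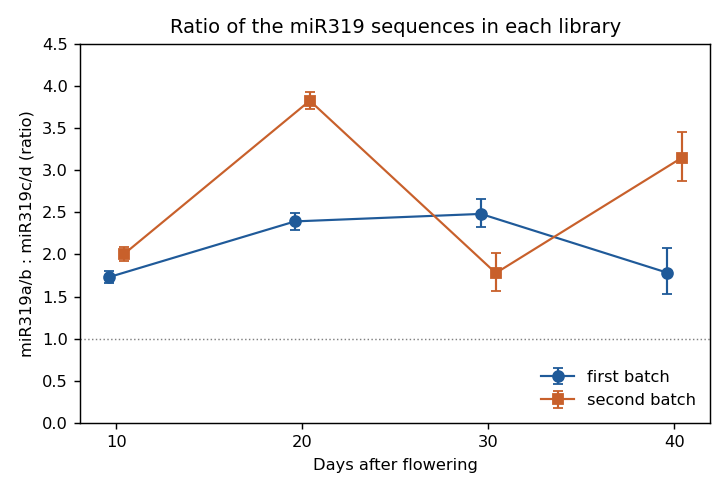
Ratio of miR319a/b to miR319c/d in each library against days after flowering, with 95% Clopper-Pearson intervals for counting error. Circles are the first batch and squares the second, set apart slightly along the axis, and the dotted line marks equal levels. All 8 libraries lie above it, between 1.73 and 3.83, and in these deposited values the batches cross between 20 and 30DAF and again before 40DAF.

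Of the near neighbours of miR319 in sequence, miR159b was lower at ripening and miR159a had no called change. miR159a measured 150248, 119504, 157690 and 186874 TPM from 10 to 40DAF in the first batch. Its second-batch levels were 71045, 152008, 118266 and 194364 TPM. Its change towards ripening was 0.45 (SE 0.38, adjusted p = 0.577 by limma). miR159b measured 10337, 3773, 749 and 695 TPM among first-batch libraries, and 6173, 1840, 1037 and 1356 TPM were its second-batch levels. Its change was -2.30 (SE 0.42, adjusted p = 0.0385 by limma), and it was the only sequence of the 71 that passed in the lower direction.

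From 10 to 20DAF miR159b and miR319 changed by different amounts in both batches, each with 1 library per stage. miR159b dropped by 2.74-fold and 3.35-fold in the first and second batch. miR319c/d changed 1.24-fold downwards and 1.09-fold upwards, and miR319a/b rose 1.12-fold and 2.07-fold. The fitted change of miR159b was -1.60 (SE 0.59, adjusted p = 0.681 by limma), and the difference between the sequences was not tested. miR159b and miR319c/d, which differ by C6U and by the extra first base of miR159b, stood at nearly the same level at 10DAF, with a ratio of 0.993 for the first batch and 1.02 for the second. At the later stages this ratio lay between 0.250 and 0.614, so the 2 did not keep a fixed proportion.

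**Figure D4:**
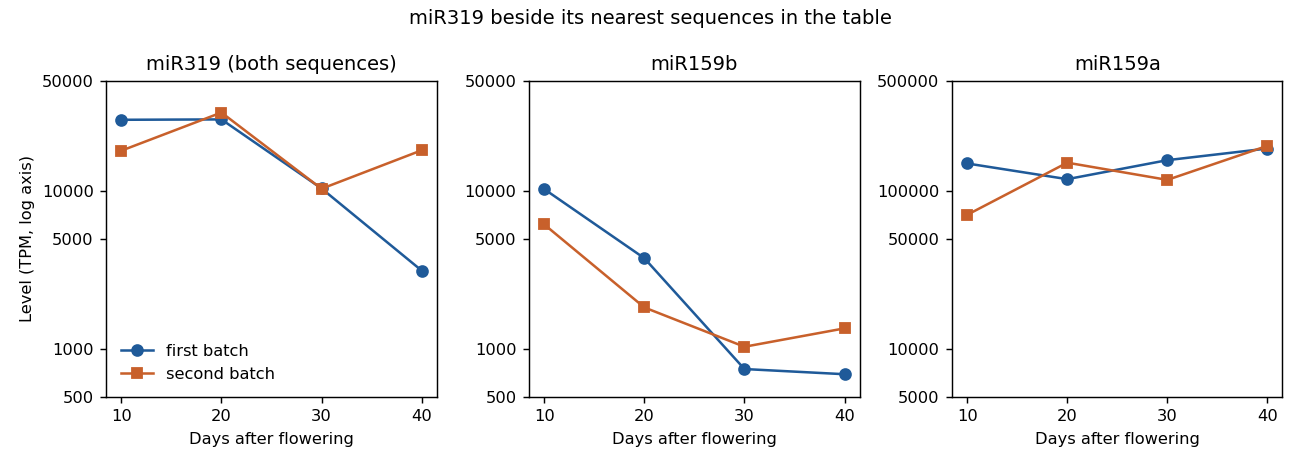
Level of the miR319 family (both sequences summed, left), miR159b (middle) and miR159a (right) in each library, in TPM on log axes that each span the same number of decades, against days after flowering. Circles are the first batch and squares the second. miR159b fell already between 10 and 20DAF, miR319 after 20DAF, and miR159a was at its highest at 40DAF in both batches (186874 and 194364 TPM).

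Since miR159a dwarfed the others, summed miR159 exceeded summed miR319 in every library, and by more in each ripening library than in any early one. The ratio of miR159 to miR319 was 5.65, 4.32, 15.2 and 59.5 from 10 to 40DAF for the first batch, and 4.27, 4.87, 11.5 and 10.8 for the second. All early libraries lay between 4.27 and 5.65 and all ripening libraries between 10.8 and 59.5. The second-batch ratios rest on the deposited TPM. Higher miR319a/b levels there, as in the listed read counts, would lower them and narrow this gap. As the log2 ratio of miR319 to miR159, the change was -1.95 (exact permutation test, two-sided, p = 0.0286, adjusted p = 0.0857 over the 6 exact tests), and within batches, as a replicate block, p = 0.0556. The batches differed by 0.78 (exact permutation test, two-sided, p = 0.429), a value that holds for the deposited TPM only. With miR159b alone in place of the sum, the change turned to 0.75 (exact permutation test, two-sided, p = 0.314), miR159b having the larger fitted fall.

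The sequences whose course over the 8 libraries was most like each member were ranked among the 51 others with a mean of at least 10 TPM, by Pearson's r of log2(TPM + 5). These values are a description over libraries that share stages, batches and scaling. The closest to each miR319 sequence was the other one, at r = 0.94. For miR319a/b the next were miR167c (0.69) and miR159b (0.64). For miR319c/d they were miR160a/b/c (0.85) and miR159b (0.83). With the batch means removed, the pair of miR319 sequences stayed at 0.94, and the other values were 0.85 and 0.68 for miR319a/b and 0.90 and 0.84 for miR319c/d. The order changed with this step. miR159b then ranked 8th for miR319a/b and 5th for miR319c/d, and behind the other miR319 sequence came miR167c (0.85 and 0.92) and miR396a/c/d (0.82 and 0.92).

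miR160a/b/c, of a family that acts on auxin response factor genes in Arabidopsis, was far rarer than miR319. It measured 85.8, 41.6, 19.5 and 4.29 TPM over the first-batch stages and 23.2, 16.2, 28.6 and 14.8 TPM over the second-batch ones, from 1 to 27 reads. miR167c, of another family with auxin response factor targets, measured 85.8, 72.2 and 12.2 TPM from 10 to 30DAF in the first batch and was listed at 0 at 40DAF. Its second-batch values were 38.0 and 10.2 TPM at the early stages, a listed 0 at 30DAF and 7.41 TPM at 40DAF. At such low counts the likeness rests on a handful of reads in the ripening libraries.

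Of the families tied to miR319 or its TCP targets in Arabidopsis, the ageing and growth miRNAs miR156 (which acts on SPL genes), miR164, miR167 and miR396 comprised 16 sequences here. Towards ripening 3 of the 16 were higher and 0 lower on adjusted p by limma. These 3 were all that passed higher among the 71 (4.23%). By the unadjusted threshold 7 were higher and 1 lower, against 16.9% higher and 8.45% lower among all 71, which include the 16. Their median change was 0.76, beside 0.08 over all sequences and -1.58 and -1.49 for the miR319 sequences. All 6 miR156 sequences and all 3 of miR164 had changes above 0, all 4 of miR167 below 0, and of miR396 1 of 3 was above 0.

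The lowest p in this list was that of miR164c/d, which moved opposite to miR319. It measured 581, 1133, 7475 and 9840 TPM over the first-batch stages and 87.7, 1046, 5843 and 10310 TPM over the second-batch ones, a change of 4.02 (SE 0.59, adjusted p = 0.0228 by limma). miR319a/b was the more abundant of the 2 in every library but the first-batch ones of 30 and 40DAF, where miR164c/d stood at 7475 and 9840 TPM against 7439 and 2020 TPM. miR156g/h changed by 2.73 (SE 0.59, adjusted p = 0.0494 by limma), from 3.31 to 11.1 TPM in the early libraries to 9.52 to 352 TPM at ripening. The rise was mainly at 40DAF, with 352 and 170 TPM in the first and second batch against 24.3 and 9.52 TPM at 30DAF. Its levels at 10DAF in both batches (6.35 and 3.31 TPM) and at 30DAF in the second lay below the floor of 3 reads. Among the members below 0, miR396a/c/d changed by -2.18 (SE 1.24, adjusted p = 0.404 by limma), with the first-batch early libraries at 87107 and 99060 TPM and all others between 3483 and 5850 TPM.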

How the data were processed

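Small RNA of 8 mesocarp libraries was analysed from the deposited table. The authors trimmed reads with FASTX-Toolkit 0.0.13, kept 18 to 30 nt, removed rRNA and tRNA found with Rfam 12.0, matched the rest to miRBase 21 with up to 1 mismatch, and deposited TPM, which are reads scaled to a common library total. The suffix 1 or 2 of a library was read as the first or second batch.

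Names with the same sequence were kept once, and 1 line with an extra empty field was repaired. log2(TPM + 5) was fitted with limma 3.58.1 (R 4.3.3) with a mean-variance trend, over all 71 sequences, with Benjamini-Hochberg adjustment. Ratios and shares were tested with two-sided exact permutation tests. With 2 libraries per stage, the p-values of the stage fits without a block measure the spread between batches. Those of the fits within batches, and of the difference between the batches in the change, measure the spread between stages of the same kind. In the batch contrast they measure how the batch difference varied over the stages. The permutation tests without a block mix spread between stages and between batches. Same-numbered libraries share a batch, and differences between the batches correlated over sequences in 6 of 6 pairs of stages (r = 0.352 to 0.664), so the number was used as a pairing block beside the main fit. Reads were recovered from the step of the low values (27 to 39 per library, 100% of them within 0.1 of a whole read). These are too few values to treat the recovered reads as deposited counts, and they served only for read totals, voom and intervals. Intervals are 95% Clopper-Pearson. Precision follows the recovered read total, which was lowest in the 30DAF library of the second batch (105075 reads). Mature and hairpin sequences came from the study's miRNA list, hairpins were folded with ViennaRNA 2.7.2 and aligned globally with Biopython 1.88. RefSeq symbols came from another assembly than the one the study used (MELONOMICS 3.5), so no coordinates are given.

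The members, lists and tests were chosen with earlier results of these data known. Named beside miR319 were miR159a and miR159b, the 3 sequences most correlated with each member, and from the list of miR156, miR164, miR167 and miR396 at most 2 of smallest p per direction and comparison. As alternatives, the pseudocount was set to 1 or 20 TPM, and the others were keeping sequences averaging 10 TPM or more, scaling on other families or by median ratio, counting every name, no trend, voom on the recovered reads, the libraries of the compared stages only, the block, and leaving out each library. The limma and permutation steps were tested on simulated data. Target predictions and raw reads were not analysed here.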

Additional observations from a re-analysis of the deposited data

Results flagged for a closer look

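In the second batch, the miR159b level at 10DAF stood far from the others, at 6173 TPM against 1037 to 1840 TPM at the later stages, a gap of 0.844 of the whole range. It was the only one of 28 groups of 4 libraries looked at, over the measures of miR319 and miR159, in which a library stood so far off, and chance alone flags about 1 in 20 such groups. The 4 libraries are of 4 different stages, so they are not replicates of one condition. At this stage miR319c/d measured 6029 TPM.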

How the results depend on the processing

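Over 10 alternatives other than leaving out a library, the change of both miR319 sequences towards ripening kept its direction, at -2.79 to -1.34 for miR319a/b and -2.70 to -1.25 for miR319c/d. It passed on adjusted p only with scaling on all families but miR159, miR396 and miR319 (-2.79 and -2.70), an alternative added after seeing the data, as were voom and the use of miR159b alone. Median-ratio scaling moved the median over all sequences by -0.20 in this contrast and 0.33 between the batches. Calls towards ripening numbered 2 in place of 4 with a pseudocount of 1 TPM, with scaling on all families but miR159 and miR396 and with median-ratio scaling, and 7 without miR319 in that scaling. Calls between the batches numbered 0 in place of 2 with a pseudocount of 20 TPM, and 5 with median-ratio scaling or scaling without miR319. The replicate block left the log2 share at -1.97 and the ratio to miR159 at -1.95, both at exact p = 0.0556 where they had passed, and the ratio to miR159b alone was 0.75. Beside these and the calls from 20 to 40DAF, the block changed no call of a miR319 sequence.

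Leaving out 1 library at a time, the change towards ripening ranged from -2.27 to -0.88 for miR319a/b and -1.97 to -1.0 for miR319c/d, with 0 to 5 sequences called. The batch difference ranged from -0.14 to 0.97 and -0.28 to 0.63 with 0 called, and the difference between the batches in the change from 0.50 to 2.38 and 1.01 to 2.41, never past adjusted p for miR319. The ratio of the miR319 sequences changed by -0.25 to 0.14 towards ripening and by 0.11 to 0.48 between the batches. The share ranged from -2.45 to -1.34 and 0.35 to 1.62, and the ratio to miR159 from -2.20 to -1.38 and 0.01 to 1.28, with no exact test able to go below p = 0.0571. From 10 to 20DAF the change of miR319c/d ranged from -0.49 to 0.30, turning to 0.30 without the first-batch 10DAF library and to 0.09 without the second-batch 20DAF library. From 30 to 40DAF the changes ranged from -1.80 to 0.97 for miR319a/b and -1.56 to 0.39 for miR319c/d, with the upper values without the first-batch 40DAF library. The ratio towards ripening turned to 0.02 without the first-batch 40DAF or the second-batch 30DAF library and to 0.14 without the second-batch 20DAF library. The cause of these changes was not tested. A planned edgeR fit was not run, because the deposited values are not counts. The read counts listed with the study, which depart from the deposited TPM for second-batch miR319a/b, were not fitted.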
